A study of Mus musculus with 2 samples.

Results

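The miR-7 family was examined in small RNA of wild type mouse hearts (E9.5 WT, strain C57BL/6, embryonic day 9.5), sequenced in 2 replicates. Its members were chosen by name, as all precursors whose mature miRNA is called miR-7a or miR-7b, which gave 3 of the 620 precursors listed in either replicate (called entries here). All 3 entries were listed in both replicates: miR-7a-1, miR-7a-2 and miR-7b. Total RNA was extracted with TRIZOL, sequenced as single-end reads on HiSeq2500 and mapped to mm9 with miRDeep2, and each entry carries raw counts of reads on its mature arm, its loop and its star arm. The mature arm is the side of the hairpin from which the miRNA is taken and the star arm is the opposite side. The whole heart was used without sorting, there is a single group of samples, and the labels do not say whether the replicates were separate embryos or pools, so spread between them may be technical. The choice was made with counts of these tables already known, among them that star reads differ by locus, so the levels and the star split are given as descriptions.

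MiR-7 is a miRNA conserved from insects to mammals and is best known from neurons and neuroendocrine cells such as those of the pituitary and the pancreatic islet, where it restrains growth factor signalling through targets that include the EGF receptor pathway. Its precursor is cut out of the primary transcript by Drosha with DGCR8, whose gene the study deleted in other hearts with Mesp1-Cre, and Dicer then frees a duplex from which the mature strand is kept and the star strand is mostly lost. In brain, miR-7 is bound by the circular RNA Cdr1as, which miR-671 cleaves, and is degraded under the direction of the long noncoding RNA Cyrano.

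The mature sequences of miR-7a and miR-7b are shown because they decide what the counts can tell apart. Both miR-7a precursors give the same mature sequence. MiR-7b differs from it by a single substitution, A10U, counted from 1 at the 5′ end and read from miR-7a to miR-7b. Capitals mark the seed, bases 2 to 8, with which a miRNA pairs to its targets.
miR-7a-5p: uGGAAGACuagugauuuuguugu
miR-7b-5p: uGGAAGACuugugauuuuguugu
The seed is the same in all 3 entries, and no other of the 620 entries carries it.

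The star arms are what tells the loci apart. In the RefSeq sequences (GRCm38.p6), miR-7a-2-3p differs from miR-7a-1-3p at 3 of 22 bases (A7G, A10C and U21C) and miR-7b-3p differs from it at 5 (A7G, U14C, U16A, A20U and U21C). Capitals mark these bases.
miR-7a-1-3p: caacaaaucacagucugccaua
miR-7a-2-3p: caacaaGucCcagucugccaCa
miR-7b-3p: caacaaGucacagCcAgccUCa
The star sequence listed at miR-7a-1 was identical to the RefSeq arm. The star sequences listed at miR-7a-2 and miR-7b, where the tables counted 0 star reads, start 1 base later and are 21 bases long. Searched on both strands of the NCBIM37 genome, the assembly that mm9 names, the mature sequence of miR-7a had 2 exact copies, those of its own loci. Each listed star sequence had 1, and so did the mature sequence of miR-7b.

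The 3 precursors lie on different chromosomes. Their sequences, as listed in the tables and with the mature arm in capitals, show that the loops differ in length and sequence after a shared first base, u.
miR-7a-1: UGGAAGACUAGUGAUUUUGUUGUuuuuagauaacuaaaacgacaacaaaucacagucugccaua
miR-7a-2: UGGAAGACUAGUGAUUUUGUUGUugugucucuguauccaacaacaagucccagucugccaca
miR-7b: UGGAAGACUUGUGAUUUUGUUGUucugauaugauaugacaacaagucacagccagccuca
MiR-7a-1 lies on the minus strand of mm9 at chr13:58494161-58494224, within Mir7-1, and falls in intron 17, the last, of Hnrnpk, a gene for an RNA-binding protein transcribed from the same strand. It overlaps no exon of the host. MiR-7a-2 lies on the plus strand at chr7:86033181-86033242, within Mir7-2, between Det1 at a distance of 41.1 kb and Aen at 7.5 kb. MiR-7b lies on the plus strand at chr17:56382440-56382499, within Mir7b, between Dpp9 at 24.1 kb and Fem1a at 13.7 kb. Neither of these lies in a gene of GENCODE vM1 other than its own miRNA gene. Folded without flanks by RNAfold, the listed precursors had a minimum free energy of -24.9 kcal/mol for miR-7a-1, -20.1 for miR-7a-2 and -14.4 for miR-7b, with 20, 19 and 16 of the 23 mature bases paired.

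Mature reads, summed over all entries with sequences listed at several loci included at each, came to 4942257 for replicate 1 and 4806179 for replicate 2. Levels are given as the percent of these sums. MiR-1a, miR-133a, miR-208a, miR-208b and miR-499, known from cardiac muscle, together held 11.6% ± 0.302 (SD, n = 2), each by its highest entry. Most of this was miR-1a, at 9.97% in replicate 1 and 10.5% in replicate 2. MiR-133a held 1.23% and 1.19%, miR-499 0.167% and 0.147%, and miR-208b 0.038% and 0.0329%. MiR-208a was listed only in replicate 1, at 0.0174%. MiRNAs known from other cell types were also found, with miR-126a, known from endothelium, at 2.88% ± 0.0164 (SD, n = 2). MiR-143 and miR-145a, known from smooth muscle, held 7.38% ± 0.794 (SD, n = 2) in sum. The cell types themselves were not measured.

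MiR-7a-5p was among the abundant miRNAs of the E9.5 heart, and miR-7b-5p was not. The miR-7a-2 entry had a mature count of 47728 in replicate 1 against 42979 in replicate 2. The miR-7a-1 entry had 47697 and 42936. The miR-7b entry had 186 and 143. Both miR-7a entries were far above miR-7b in each replicate. In whole hearts, fewer cells with a miRNA and less of it per cell cannot be told apart. As a share of mature reads, miR-7a-2 held 0.966% in replicate 1, with a 95% Wilson interval from 0.957% to 0.974%, against 0.894% in replicate 2 (0.886% to 0.903%), with a mean of 0.93% ± 0.0505 (SD, n = 2). MiR-7a-1 held 0.929% ± 0.0507 (SD, n = 2). Its mature reads may be the same reads as those of miR-7a-2, so these shares are not separate measurements. MiR-7b held 0.00376% in replicate 1 (0.00326% to 0.00434%) and 0.00298% in replicate 2 (0.00253% to 0.0035%), with a mean of 0.00337% ± 0.000557 (SD, n = 2). These intervals cover read-counting error only, and reads without molecular identifiers are not independent molecules.

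**Figure D1:**
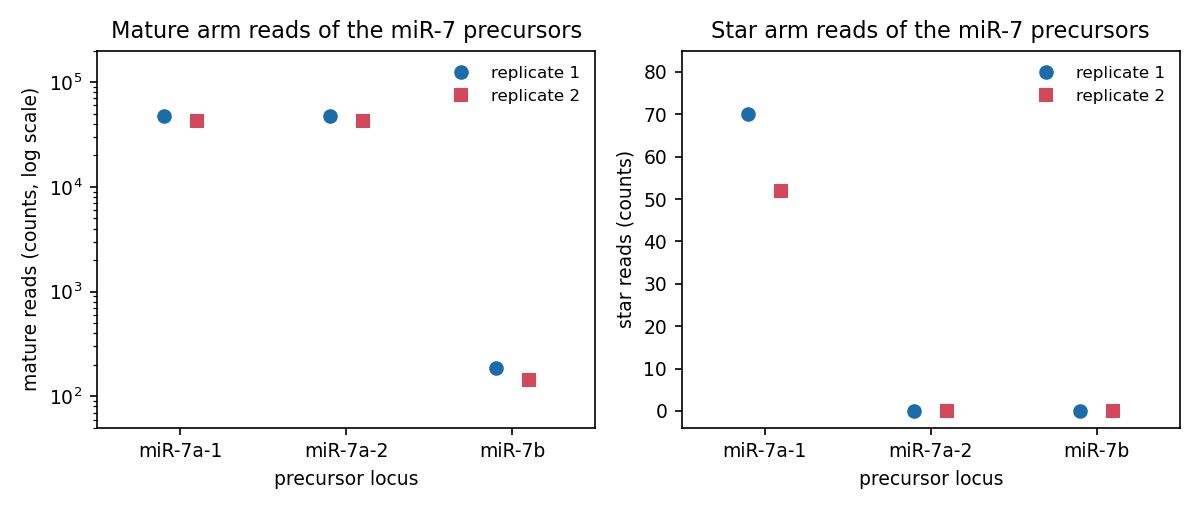
Mature reads (left, log scale) and star reads (right, linear scale) of the 3 miR-7 precursors, with circles for replicate 1 and squares for replicate 2. The miR-7a loci coincide in mature reads, miR-7b sits at 186 and 143, and star reads were counted only at miR-7a-1 (70 and 52).

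Each miR-7b-5p read was matched by 257 miR-7a-5p reads in replicate 1 and 301 in replicate 2, a ratio of 279 ± 31.1 (SD, n = 2). Among the 471 entries listed in both replicates, miR-7a-2 ranked 23 and miR-7a-1 ranked 24 by mean share, each with the same rank in both replicates, and miR-7b ranked 284. With each mature sequence taken once, miR-7a-5p ranked 17 and miR-7b-5p ranked 225 of 388. In the plot of share by rank, miR-7a-5p lies near the top of the curve and miR-7b-5p in its lower part.

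**Figure D2:**
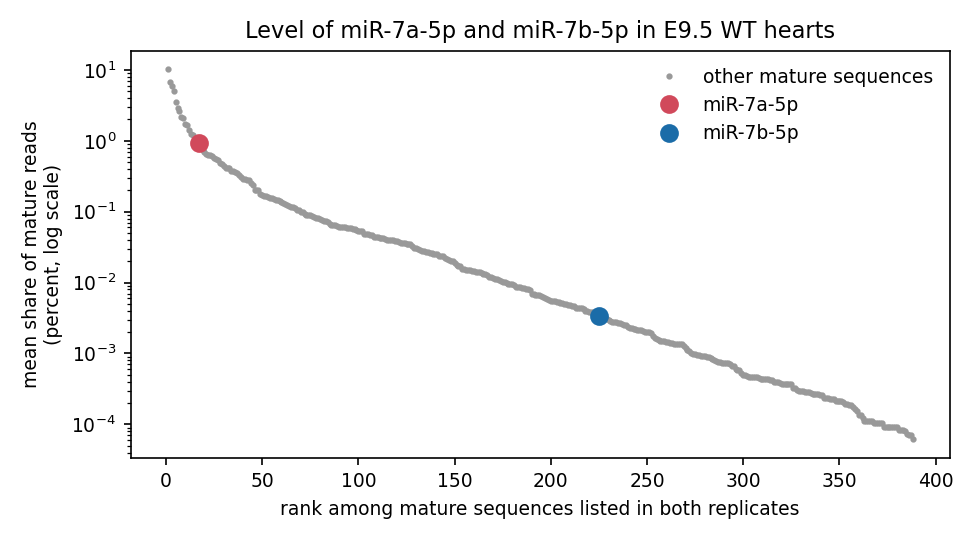
Mean share of mature reads over the 2 replicates (percent, log scale) against rank for the 388 mature sequences listed in both. Grey points are other miRNAs, red is miR-7a-5p (rank 17, 0.93%) and blue is miR-7b-5p (rank 225, 0.00337%).

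The entries nearest in level, by the distance of the log2 shares over the 2 replicates, were taken for each member. For miR-7a-5p the nearest was miR-30d-5p at a distance of 0.194, with 42326 and 40448 mature reads. It was followed by miR-541-5p at 0.348, miR-25-3p at 0.358 and miR-218-5p at 0.468. The shares of miR-30d-5p, 0.856% and 0.842%, lay below both values of miR-7a-2, and those of miR-25-3p, 0.967% and 1.15%, lay above both. In replicate 1 the difference between miR-25-3p and miR-7a-2 was within their counts, 47814 and 47728. For miR-7b-5p the nearest was miR-488-3p at 0.0707, with 184 and 150 mature reads against its 186 and 143, followed by miR-3068-5p at 0.274, miR-96-5p at 0.297 and miR-669l-5p at 0.32. The ranges of miR-7b overlapped those of these 4, so its place among them is not resolved.

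Mature reads could not be divided between the miR-7a loci. A read of the shared mature sequence maps equally to both, and the entries differed by only 31 mature reads in replicate 1 and 43 in replicate 2, each time in favour of miR-7a-2. This is 0.065% and 0.1% of the mature reads of miR-7a-1. The mature counts of miR-133a-3p and of miR-24 were identical at their 2 loci in both replicates. Those of miR-92a and miR-218-5p were 20.8% and 29.5% lower at one locus than at the other in replicate 1. Whether a read was counted at both loci is not given in the sources used here, so the miR-7a entries are not added. Their sum may count the same reads more than once.

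Star reads were found at only one of the 3 loci. MiR-7a-1 had 70 star reads in replicate 1 and 52 in replicate 2. MiR-7a-2 had 0 in both, and so had miR-7b. Of the star reads of miR-7a, 100% thus lay at miR-7a-1, in the intron of Hnrnpk. A count of 0 allows up to 3 reads, so the part of miR-7a-2 could be up to 4.29% of miR-7a star reads in replicate 1 and 5.77% in replicate 2. Relative to the mature and star reads listed at miR-7a-2, its 0 allows up to 0.00629% and 0.00698%. These mature reads may come in part from miR-7a-1, and the limit would then be higher for reads of miR-7a-2 alone. For miR-7b, with its few reads, the 0 allows up to 1.61% and 2.1%, which is above the share seen at miR-7a-1. A star arm of miR-7b at that share was thus not detectable at this depth. Loop reads were 0 at all 3 loci in both replicates. How far star reads stand for the output of a locus was not tested.

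At miR-7a-1 the star arm held 0.147% of mature and star reads in replicate 1, with a 95% Wilson interval from 0.116% to 0.185%, against 0.121% in replicate 2 (0.0923% to 0.159%). That is 681 mature reads for each star read in replicate 1 and 826 in replicate 2, with mature reads that may come in part from miR-7a-2. The ratio of star to mature reads did not pass the test between the replicates, with an odds ratio of replicate 1 over replicate 2 of 1.21 (p = 0.319, two-sided Fisher's exact test). Over all entries, star reads made up 2.45% and 2.68% of mature and star reads. Among 162 loci that reached 1000 mature reads per replicate, the median star share was 1.32%, and 26.5% of these loci lay below the mean of miR-7a-1, 0.134%. Of the 53 that reached 10000 mature reads per replicate, 3 had 0 star reads in both replicates: miR-7a-2, miR-20a-5p on chromosome 14 and miR-218-5p on chromosome 5.

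The split was set beside that of other miRNAs with several loci. In total, 19 mature sequences had at least 1000 mature reads at each of 2 or more separate loci, and 14 of these had star sequences that differ between loci and at least 20 star reads in sum. The leading locus held all star reads in both replicates for 3 of the 14: miR-7a-5p, miR-218-5p with 10 and 15 star reads, and let-7c-5p with 52 and 61. MiR-7a-5p had 122 star reads over both replicates, more than either of the others in sum. Others came close, such as miR-92a with 99.6% and 99.4% at its locus on chromosome 14. Star reads were spread more evenly for let-7f-5p, with 62.5% and 72.7% at the leading locus, and for miR-181a-5p, with 77.7% and 72.9%. For miR-26a-5p the share of the same locus was 93.3% in replicate 1 and 15.4% in replicate 2, of 179 and 13 star reads. In replicate 2 the total of this entry exceeds the sum of its mature, loop and star reads, so its star count there is uncertain. The parts of the miR-7 entries add up to their totals in both replicates.

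**Figure D3:**
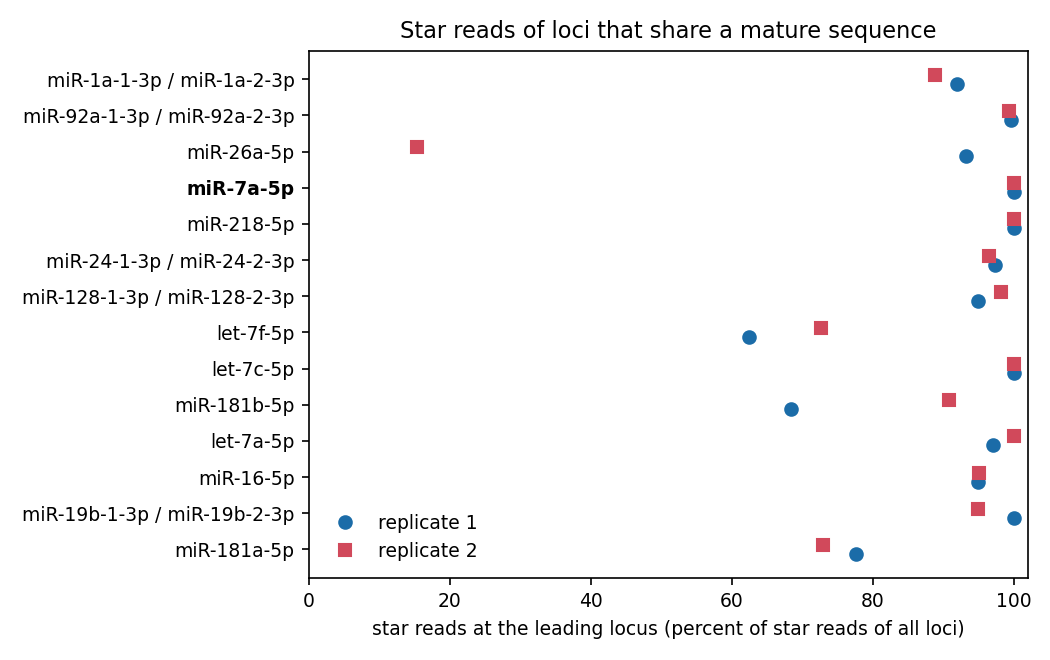
Percent of star reads at the leading locus for the 14 mature sequences with separate loci and distinct star sequences, with circles for replicate 1 and squares for replicate 2. MiR-7a-5p, miR-218-5p and let-7c-5p sit at 100% in both replicates.

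The miRDeep2 scores, log-odds of a true precursor that are rounded in the tables, take star reads into account, so they are no separate evidence of the split. MiR-7a-1 scored 24000 in replicate 1 and 21000 in replicate 2. MiR-7a-2, with nearly the same mature reads and no star reads, scored 2.1 in both, and miR-7b scored 1.4 in both. Scores under 10 were given to 9 of the 53 loci that reached 10000 mature reads in replicate 1 and to 10 in replicate 2, so that of miR-7a-2 was not alone.

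MiR-7a-5p and miR-7b-5p form 1 of 22 pairs of listed mature sequences that differ by a single substitution over at least 20 bases. With 0.39 miR-7b reads per 100 miR-7a reads in replicate 1 and 0.333 in replicate 2, the pair had the second lowest ratio of the 22 in each replicate. Only miR-378d against miR-378a-3p was lower, at 0.14 and 0.105, and the next above by the mean of the replicates was miR-106a-5p against miR-17-5p, at 3.15 and 3.04. At the other end, miR-30a-5p had 82.2 and 73.1 reads per 100 of miR-30d-5p. Whether reads of miR-7a with a mismatch at base 10 were counted as miR-7b was not tested, and the settings for mismatches are not given in the sources used here.

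**Figure D4:**
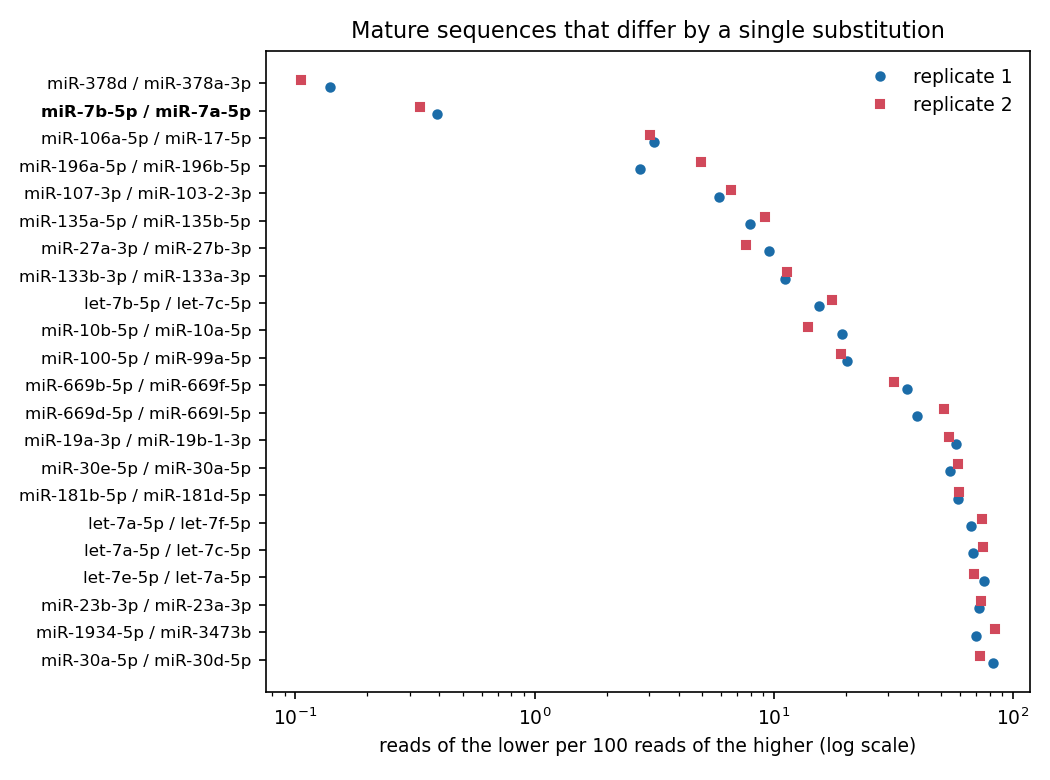
Reads of the less abundant per 100 reads of the more abundant member (log scale) for 22 pairs of mature sequences that differ by a single substitution, with circles for replicate 1 and squares for replicate 2. MiR-7b-5p against miR-7a-5p (0.39 and 0.333) is the second lowest pair.

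The mature reads of replicate 2 were set against those of replicate 1 in a two-sided exact binomial test. P-values were adjusted by Benjamini-Hochberg over the 426 entries that were listed in both and reached 20 reads in sum. Their mature arm also had to be on the same side of the hairpin in both replicates. The test covers counting error and compares these libraries, not conditions. Of the 426 entries 41.1% were called, 118 with a higher share in replicate 2 and 57 in replicate 1, a split that turned to 82 and 95 with edgeR's TMM and to 77 and 101 with DESeq2's size factors. With each mature sequence counted once, 135 of 347 were called. Both miR-7a entries were called, with a lower share in replicate 2 by a log2 ratio of -0.11 (adjusted p = 6.6e-30 for miR-7a-2, exact binomial test). Their mature reads may be the same reads, so these are not separate results. A call at this depth needs little: the ratio was smaller than the median absolute log2 ratio of the tested entries, 0.19, and 34.7% of them had a smaller one than miR-7a-2. MiR-7b had a log2 ratio of -0.34 and was not called (adjusted p = 0.083, exact binomial test). It was called with TMM (-0.40, adjusted p = 0.033, same exact test) and with DESeq2's size factors (-0.41, adjusted p = 0.028, same exact test). All 3 members kept their direction under both scalings. The spread between replicates over these entries, from edgeR's common dispersion, was 14.5% as a biological coefficient of variation.

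**Figure D5:**
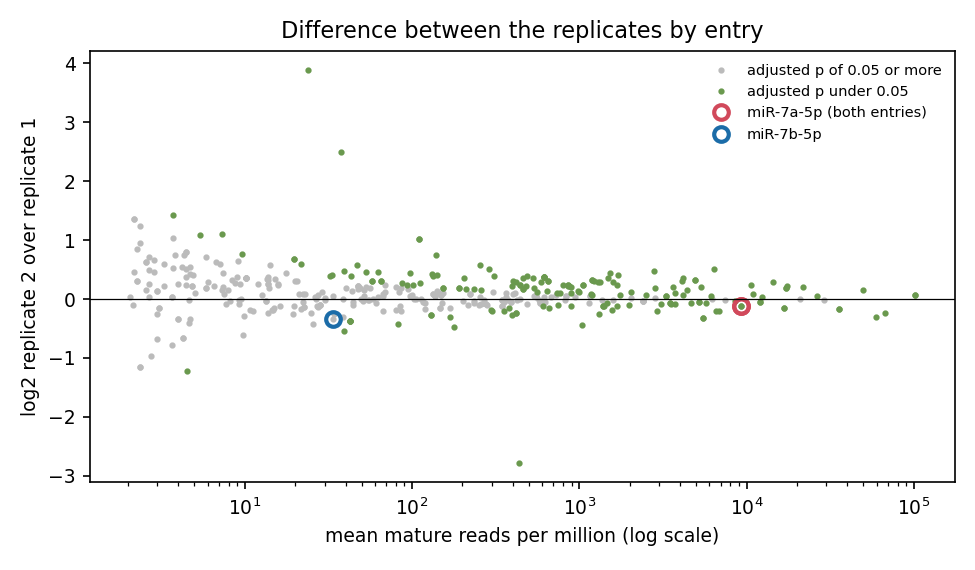
Log2 ratio of replicate 2 over replicate 1 against mean mature CPM (counts scaled to the mature total of each library, log scale) for the 426 entries tested. Green points have an adjusted p under 0.05, and open circles mark both miR-7a-5p entries (red, -0.11) and miR-7b-5p (blue, -0.34).

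For star reads, 14.1% of 177 entries were called in the same exact binomial test. The star reads of miR-7a-1 had a log2 ratio of -0.52 and were not called (adjusted p = 0.22). The other loci had no star reads to test.

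MiRNAs that share the known settings of miR-7 had fewer reads than miR-7a-5p or were not listed. The same holds for most miRNAs here: 95.1% of the entries listed in both replicates had a lower mean share than miR-7a-2. The comparison is thus a description of levels and is not particular to these miRNAs. MiR-375, a neuroendocrine miRNA, had 22 and 17 mature reads, and miR-671-5p, which cleaves Cdr1as, had 319 and 330. Of 6 neural miRNAs, 3 were listed in both replicates, with a summed share of 0.159% in replicate 1 and 0.184% in replicate 2. Most of it was miR-128-1-3p, with 5921 and 7003 reads. MiR-129-5p had 1712 and 1647. MiR-9-5p had 237 and 178. MiR-124 was listed only in replicate 1, with 2 reads of its 5p arm, and miR-137 and miR-153 were not listed. In the test between the replicates, miR-128-1-3p was called with a higher share in replicate 2 (log2 ratio 0.28). MiR-9-5p was called with a higher share in replicate 1 (-0.37), and miR-129-5p was not called (-0.016). Of all entries tested 41.1% were called, so these calls are not particular to neural miRNAs. The part of neural or neuroendocrine cells in the miR-7a reads was not tested.

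Seed matches were counted in 3′ UTRs to show the sites through which this seed is read, since no target transcript was measured in these libraries. The sites were GTCTTCC (pairing with bases 2 to 8), TCTTCCA and the union of both, GTCTTCCA, on the transcript strand. Of 14 published target or partner genes written from general knowledge, 13 had a 3′ UTR in GENCODE vM1, and 11 of these held at least 1 site in the longest one. Among all 19856 genes with a 3′ UTR, 21.6% held a site. The listed genes are known as targets partly through such sites and had longer 3′ UTRs (median 1199 bases against 893), so the difference is a description. Parp1, an enzyme of DNA repair, held 1 site of 8 bases. Klf4, a transcription factor, held 2 sites pairing with bases 2 to 8. Pak1 held 0, as did Irs2, whose annotated 3′ UTR is 30 bases long.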

How the data were processed

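Small RNA of E9.5 WT hearts (2 replicates, 1 group) was analysed. The authors ran miRDeep2 on reads mapped to mm9 and deposited raw read counts per precursor, without normalization, and rounded miRDeep2 scores (per the file headers, a log-odds score). Versions, trimming, length filters and mismatch settings are not given in the sources used here.

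An entry of replicate 1 was matched to one of replicate 2 at a reciprocal overlap of 50% or more, and all 620 precursor sequences were identical to NCBIM37. An entry with one mature sequence within 200 bases of another counted as the same locus. Intervals are 95% Wilson intervals. Replicates were compared across all entries by exact binomial tests with Benjamini-Hochberg adjustment. The tests were tried on simulated counts that held read-counting error only, so the spread between real replicates was not covered. With 1 group there was no edgeR contrast. EdgeR 4.0.16 and DESeq2 1.42.0 (R 4.3.3) gave alternative scalings, RNAfold 2.7.2 the folds, and Python 3.11.15 with scipy 1.17.1 the rest. The planned Fisher's test of miR-7a locus by replicate held no information, since miR-7a-2 had 0 star reads in both.

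Members, marker lists and target genes were chosen with earlier results of these data known. Named are all miR-7 entries, the listed markers and targets, and the 4 nearest entries of each member. MiRNAs named in the star and pair comparisons, and the genes named among the targets, were chosen after their values were seen. RefSeq held an entry by name for all 3 members, with arms that differ in length by 1 base from the listed mature sequence of miR-7b and the listed stars of miR-7a-2 and miR-7b.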

Additional observations from a re-analysis of the deposited data

How the results depend on the processing

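The largest moves in level came from the treatment of repeated mature sequences. With each mature sequence counted once, the share of miR-7a-5p moved from 0.93% to 1.27% and that of miR-7b-5p from 0.00337% to 0.00461%. With both miR-7a entries summed, an alternative added after seeing the data, miR-7a-5p held 1.86%. This sum may count the same reads at both loci. All precursor reads, a minimum of 10 mature reads and TMM sizes moved neither share by more than 1 SD. With a replicate left out, which leaves the value of the other, the share of miR-7a-5p was 0.894% or 0.966%, that of miR-7b-5p 0.00298% or 0.00376%, and their ratio 257 or 301. Star reads of miR-7a lay at miR-7a-1 in each replicate, also with loop reads added. The number of entries that differed between the replicates stayed within 1.5 times of 175 for mature and 25 for star reads under every scaling and minimum tried. Of the members, only the call of miR-7b changed, with both scalings. With 2 samples of a single group, no difference between conditions could be measured, and 186 and 143 reads limit what can be said of miR-7b.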
